A study of Homo sapiens with 8 samples.

Results

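The 47 interferon-stimulated genes described here are antiviral effectors, RNA sensors, ISG15 pathway enzymes and transcription factors, and were taken by gene symbol from a gene count table of 78691 rows. They were measured by RNA sequencing in 8 libraries, with 2 libraries in each of 4 groups. C4-2B, a prostate adenocarcinoma line, was transduced with lentivirus that was either empty (control) or overexpressed MYCL. NCI-H660, a neuroendocrine prostate cancer line, carried either a non-targeting shRNA (shCtrl) or an shRNA against MYCL (shMYCL), delivered with an adenoviral vector in the description of the design and as a stable knockdown in the description of the treatment. All 4 groups had therefore been exposed to a viral vector, no group was untransduced, and the sources do not say whether the transduced cells were pools or clones. The labels call the C4-2B control libraries biological replicates and all other libraries replicates, with nothing said of separate cultures, so p-values measure the spread between these libraries only.

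Interferons are secreted proteins that bind receptors on the cell surface and, through Janus kinases, activate STAT transcription factors. Type I and type III interferons lead to a complex with STAT2 and IRF9 that binds the interferon-stimulated response element (ISRE), and type II interferon acts through the gamma-activated sequence (GAS). The genes that carry these elements encode proteins that block viral entry, degrade or sequester viral RNA, or feed back on the pathway, and many keep a basal level in tumour cells without added interferon.

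Promoter windows from RefSeq, which run from 250 bases before to 50 bases after a gene's start on GRCh38.p14, were found for 37 of the 47 genes. The ISRE core (GAAA, any 2 bases and GAAA again), searched on both strands, was present in 23 of these windows (62.2%), compared with 3.65% of the 27305 promoter windows of the same length in the table. The GAS core TTCNNNGAA, which reads the same on both strands, was present in 8 windows (21.6%), compared with 7.88% of all windows. The E-box CACGTG, the sequence bound by MYC family proteins with their partner MAX, was present in 5 windows (13.5%), compared with 7.43% of all windows. The following stretches are shown because 4 of these genes (ISG15, IFI6, BST2 and LGALS3BP) rose in C4-2B cells with MYCL while IFIT1 and IFIT3, which carry the same ISRE core, did not pass the test there. IFIT3 had at most 17 counts in a C4-2B library and a fitted change as large as that of ISG15. That it did not pass does not show a smaller change. Capitals mark the ISRE core in either orientation, and each stretch is written 5′ to 3′ along the gene.
ISG15, chr1:1013359-1013424, plus strand: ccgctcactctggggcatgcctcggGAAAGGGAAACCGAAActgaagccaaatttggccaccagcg
IFI6, chr1:27672251-27672373, minus strand: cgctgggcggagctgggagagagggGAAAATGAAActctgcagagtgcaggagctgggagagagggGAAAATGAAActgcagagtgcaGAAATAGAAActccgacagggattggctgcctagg
BST2, chr19:17405720-17405785, minus strand: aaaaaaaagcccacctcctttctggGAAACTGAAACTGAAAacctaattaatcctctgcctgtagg
LGALS3BP, chr17:78979947-78980006, minus strand: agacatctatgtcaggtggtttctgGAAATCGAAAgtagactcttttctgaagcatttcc
IFIT1, chr10:89392482-89392554, plus strand: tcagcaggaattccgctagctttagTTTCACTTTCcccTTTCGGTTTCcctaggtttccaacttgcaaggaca
IFIT3, chr10:89327816-89327909, plus strand: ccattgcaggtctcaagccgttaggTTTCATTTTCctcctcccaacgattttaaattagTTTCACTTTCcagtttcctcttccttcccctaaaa

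IRF1 and IRF9 had a GAS core and no ISRE core, and both rose with MYCL. Their stretches are given with the GAS core in capitals.
IRF1, chr5:132490864-132490922, minus strand: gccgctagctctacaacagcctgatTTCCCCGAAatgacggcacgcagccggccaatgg
IRF9, chr14:24161177-24161235, plus strand: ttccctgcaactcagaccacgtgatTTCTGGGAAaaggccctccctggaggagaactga

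MYCL itself followed the labels. It went from 371 and 320 counts in the C4-2B control libraries to 65524 and 70253 counts in the MYCL libraries, and from 1863 and 1602 counts in shCtrl to 165 and 198 counts in shMYCL. Library totals ran from 15177071 to 32344170 counts, and the lowest C4-2B total was 18090296 counts. The 47 genes held between 0.0649% and 0.0711% of counts in the C4-2B libraries and between 0.15% and 0.158% in the NCI-H660 libraries. KLK3, a luminal prostate marker that encodes prostate-specific antigen, was at 1260 and 1270 TPM in C4-2B control, at 825 and 750 TPM in MYCL libraries and at 0 in all 4 NCI-H660 libraries. CHGA, a neuroendocrine marker that encodes chromogranin A, was at most at 0.276 TPM in C4-2B and between 112 and 126 TPM in NCI-H660 libraries. Both markers were chosen after their values were seen. In C4-2B cells with MYCL, the 7 luminal markers, KLK3 among them, had a median log2 fold change of -0.28. Both MYCL libraries stood below both control libraries for 5 of the 7 and above them for 1, by counts scaled to library size. Groups without overlap made up 69.2% of all genes tested. TMPRSS2 went against KLK3, at 117 and 125 TPM in control and at 153 and 136 TPM in MYCL libraries. TPM is a level per gene length, scaled so that all libraries have an equal sum. Leukocyte markers, of interest because leukocytes express many of these genes, summed to between 8.94 and 11.5 TPM in C4-2B control and to between 24.6 and 26.8 TPM in MYCL libraries. Of the 9 leukocyte markers 8 were under 1 TPM in both C4-2B groups, CD68 carried nearly all of the sum, and the defining marker PTPRC had 0 counts in all 4 C4-2B libraries. The part of the KLK3 and CD68 shifts in the results was not tested.

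Summed over the 47 genes, the level was 335 and 363 TPM in the C4-2B control libraries and 489 and 508 TPM in the MYCL libraries, with no overlap. It was 788 and 756 TPM in shCtrl and 781 and 746 TPM in shMYCL libraries, which overlapped. As a share of all counts, by contrast, the C4-2B groups overlapped as well. For the C4-2B control, the 47 genes held 0.0649% of counts (replicate 1) or 0.0684% (replicate 2). With MYCL the shares were 0.0711% (replicate 1) or 0.0682% (replicate 2). The rise of the sum in C4-2B cells thus held by TPM and was not clear by share of counts. IFITM3, BST2, ISG15, IFITM2 and ADAR were the 5 genes of highest mean TPM in both C4-2B groups. ADAR, LGALS3BP, UBE2L6, EIF2AK2 and ISG20 were the 5 highest in both NCI-H660 groups. In C4-2B cells the IFITM family and BST2 alone summed to 137 and 151 TPM in control and to 247 and 273 TPM in MYCL libraries. ADAR and EIF2AK2 gave between 56.3% and 56.9% of the members' counts in control and between 44.5% and 46.2% in MYCL libraries.

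**Figure D1:**
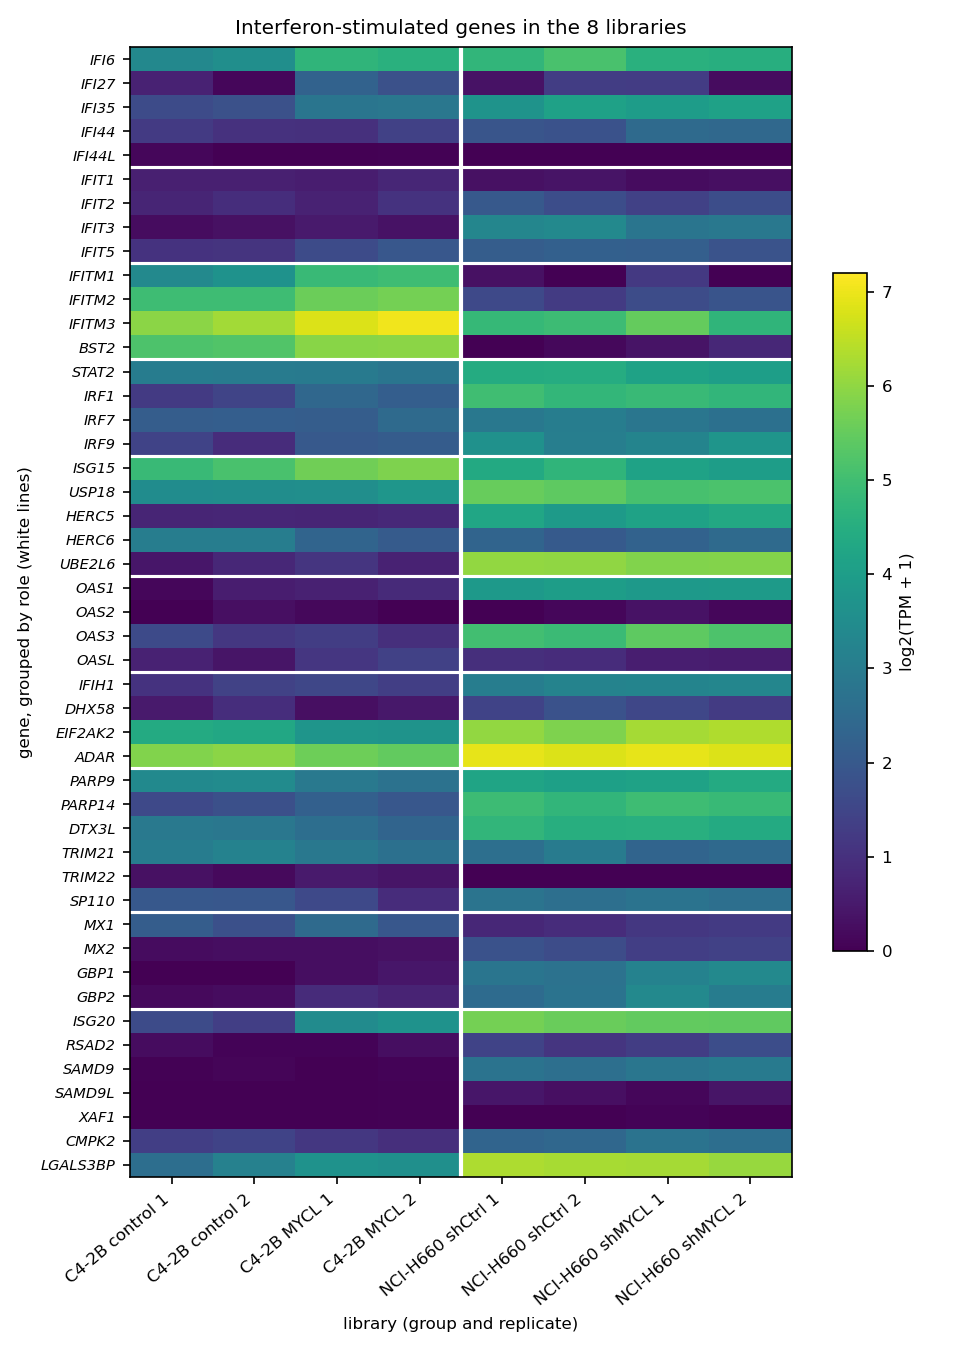
Level of each of the 47 genes in each of the 8 libraries as log2(TPM + 1), in colour, with genes in rows grouped by role and libraries in columns. IFITM1, IFITM2 and BST2 are higher in the 4 C4-2B libraries than in the 4 NCI-H660 libraries, while ADAR is high in all 8.

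MYCL overexpression in C4-2B cells was compared with the empty vector to find which of these genes changed when MYCL was added to adenocarcinoma cells. Fewer cells that express a gene and less RNA per cell cannot be told apart in bulk libraries. Of the 41 genes with enough counts to test, 16 rose, 1 fell (HERC6) and 24 did not pass. The genes that rose were all 3 IFITM genes and BST2, IFI6, IFI27, IFI35, IFIT5, ISG15, ISG20, OASL, IRF1, IRF9, GBP2, LGALS3BP and PARP14. A gene was called when edgeR's quasi-likelihood test gave a Benjamini-Hochberg adjusted p under 0.05 over all genes tested and the absolute log2 fold change was at least 0.5. By that rule 19.9% of the 16866 genes tested were called, 11.8% higher and 8.12% lower, compared with 41.5% of the tested members, 39.0% higher and 2.44% lower. IFI27 and GBP2, which count among these, had at most 8 counts in a control library. They had enough counts to test only through the MYCL libraries, the group where they were high. With no filter on low counts, 17 members were higher and 2 lower of 47, with 11.4% of all genes called. The median log2 fold change of the members was 0.51, and that of all genes tested was 0.00. The groups did not overlap for 34 of the 41 members (82.9%), but the same held for 69.2% of all genes tested. With limma on log2(TPM + 1), a scale on which the median of all genes tested moved by -0.142, 13 members were higher and 3 lower of 30 tested, and after centring each library 15 were higher and 1 lower. With limma on log2(TPM + 1) 21.2% of all genes tested were called, and 17.8% after centring. Of all genes called, 59.2% were higher with edgeR and 33.5% on that scale before centring.

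The family of interferon-induced transmembrane proteins and tetherin restrict enveloped viruses at the membrane, the IFITM proteins at entry and BST2 (tetherin) by holding budding particles at the cell surface. All 4 rose. IFITM1 was at 4.18 and 5.21 CPM (counts scaled to a library size normalised by TMM within each cell line) in control and at 12.7 and 15.8 CPM in MYCL libraries (log2 fold change 1.61, SE 0.18, edgeR adjusted p = 0.000294). IFITM3, the gene of highest mean TPM among the members, was at 17.9 and 20.7 CPM and then at 35.1 and 43.5 CPM (log2 fold change 1.03, SE 0.12, edgeR adjusted p = 0.000418). BST2 was nearly equal in the control libraries, at 22.2 and 22.3 CPM, and stood at 38.8 and 43.1 CPM in the MYCL libraries (log2 fold change 0.88, SE 0.09, edgeR adjusted p = 0.00022). IFITM2 had the smallest change of the 4 (log2 fold change 0.80, SE 0.10, edgeR adjusted p = 0.000616). In each of the 4 genes the lower MYCL library stood above the higher control library. The 3 IFITM genes lie side by side on chromosome 11 (303655-329475, GENCODE 44 on GRCh38) and are near copies of each other, and 21.1% of the exon bases of IFITM1 are shared with another gene on the same strand, so that reads may be split between them.

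Among the IFI genes, 3 of the 4 tested rose. IFI6, a mitochondrial protein that opposes apoptosis, was at 4.27 and 4.83 CPM in control and at 12.3 and 11.9 CPM in MYCL libraries (log2 fold change 1.41, SE 0.16, edgeR adjusted p = 0.000351). IFI35, a leucine zipper protein, was at 1.72 and 1.97 CPM and then at 5.10 and 5.78 CPM (log2 fold change 1.56, SE 0.26, edgeR adjusted p = 0.00196). For both genes every MYCL library stood above every control library. IFI27, a small mitochondrial protein, had the largest fitted fold change of the members that rose (log2 fold change 2.98, SE 0.63, edgeR adjusted p = 0.0063), but rested on few counts, with 0.184 and 0.084 CPM in control and 1.36 and 0.915 CPM in MYCL libraries. It had 6 and 2 counts in control, and had enough counts to test only through the MYCL libraries. Without MYCL replicate 1 the IFI27 call was lost (log2 fold change 2.69, edgeR adjusted p = 0.0535). IFI44, a cytoplasmic protein that binds guanine nucleotides, overlapped between groups (log2 fold change 0.27, SE 0.40), and its neighbour IFI44L had 1 count in MYCL and 5 counts in control cells and was not tested.

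The IFIT family binds viral RNA through tetratricopeptide repeats, and 4 of its genes lie within 137.9 kb on chromosome 10 (89283694-89421605). Only IFIT5 of these 4 rose, from 2.49 and 3.49 CPM to 6.24 and 7.21 CPM (log2 fold change 1.18, SE 0.25, edgeR adjusted p = 0.00656). IFIT1 was at 1.94 and 1.85 CPM in control and at 1.79 and 2.75 CPM in MYCL libraries, and IFIT2 was at 1.78 and 2.44 CPM and then at 1.68 and 3.26 CPM, so that the groups overlapped for both. IFIT3 stayed under 1 CPM in all 4 libraries (log2 fold change 0.89, SE 0.55, edgeR adjusted p = 0.239).

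ISG15, a ubiquitin-like protein that is attached to other proteins, rose from 9.13 and 10.3 CPM to 16.6 and 19.3 CPM (log2 fold change 0.89, SE 0.13, edgeR adjusted p = 0.00115). None of the 4 other members of its pathway rose. HERC6, a HECT domain protein of the family that attaches ISG15, fell from 21.8 CPM in both control libraries to 12.8 and 10.8 CPM (log2 fold change -0.88, SE 0.12, edgeR adjusted p = 0.000664). HERC5, the human ISG15 ligase and the neighbour of HERC6 on chromosome 4, was at 1.48 and 1.68 CPM in control and at 1.68 and 2.46 CPM in MYCL libraries (log2 fold change 0.39, SE 0.35). UBE2L6, the conjugating enzyme, and USP18, the protease that removes ISG15, did not pass the test (log2 fold changes 0.87, SE 0.60, and 0.22, SE 0.12).

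Of the OAS family, which makes the 2'-5' oligoadenylates that activate RNase L, only OASL rose (log2 fold change 1.57, SE 0.48, edgeR adjusted p = 0.0331). OASL, a member without synthase activity, was at 1.04 and 0.42 CPM in control and at 1.84 and 2.63 CPM in MYCL libraries. Its call was lost without control replicate 2 (log2 fold change 1.09, edgeR adjusted p = 0.12) and without MYCL replicate 2 (1.29, edgeR adjusted p = 0.113), and with limma on TPM unless each library was centred. OAS1 stayed under 1 CPM in all 4 libraries (log2 fold change 1.56, SE 0.73, edgeR adjusted p = 0.131), OAS3 had a log2 fold change of -0.36 (SE 0.21), and OAS2 had too few counts to test.

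Of the dynamin-like and guanylate-binding GTPases, GBP2 rose from 0.215 and 0.336 CPM to 1.57 and 1.49 CPM (log2 fold change 2.48, SE 0.50, edgeR adjusted p = 0.00523). GBP2 had 7 and 8 counts in control, and had enough counts to test only through the MYCL libraries. GBP1, its neighbour on chromosome 1 and a typical target of type II interferon, had 0 counts in both control libraries and 5 and 10 counts in the MYCL libraries, which is at least 7.84-fold higher against a limit of 3 counts over the control group, and was not tested. A count of 0 allows up to 3 counts, and this limit covers counting error only. MX1, which blocks influenza and other viruses, was at 10.4 and 7.35 CPM in control and at 15.4 and 10.1 CPM in MYCL libraries, with overlap (log2 fold change 0.51, SE 0.23, edgeR adjusted p = 0.11). It passed without control replicate 1 (0.79, edgeR adjusted p = 0.0142) and without MYCL replicate 2 (0.78, edgeR adjusted p = 0.00373). MX1 shares 5.55% of its exon bases with TMPRSS2 on the opposite strand, and TMPRSS2 had between 6556 and 9207 counts in the C4-2B libraries. The sources do not state whether counting used strand, and the share of MX1 counts that this overlap gives was not tested. MX2 had a log2 fold change of 0.43 (SE 0.56).

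Among the transcription factors, IRF1, a factor that type II interferon induces, rose from 2.06 and 2.81 CPM to 6.73 and 6.58 CPM (log2 fold change 1.46, SE 0.25, edgeR adjusted p = 0.00228). IRF9, the DNA-binding subunit of the ISRE complex, rose from 2.43 and 1.76 CPM to 4.07 and 4.86 CPM (log2 fold change 1.08, SE 0.28, edgeR adjusted p = 0.0173). The IRF9 call was lost without control replicate 2 (0.87, edgeR adjusted p = 0.0688) and without MYCL replicate 2 (0.94, edgeR adjusted p = 0.0585). STAT2, the partner of IRF9, was level at 24.8 and 23.8 CPM in control and at 24.9 and 23.8 CPM in MYCL libraries (log2 fold change 0.00, SE 0.09). IRF7, which drives interferon alpha genes, did not pass (log2 fold change 0.35, SE 0.23). IRF1 shares 22.9% of its exon bases with an antisense transcript and IRF9 23.9% with a gene on the same strand.

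None of the 4 RNA sensors and their regulators was called by edgeR, although 2 had an unadjusted p under 0.05. ADAR, the adenosine deaminase that edits double-stranded RNA, was at 293 and 313 CPM in control and at 268 and 260 CPM in MYCL libraries (log2 fold change -0.20, SE 0.07, edgeR adjusted p = 0.0597). EIF2AK2, the kinase PKR, was lower by less than the fold minimum (log2 fold change -0.35, SE 0.08, edgeR adjusted p = 0.00773). IFIH1, which encodes the sensor MDA5, and DHX58, which encodes its relative LGP2, had log2 fold changes of 0.27 (SE 0.25) and -0.90 (SE 0.52).

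Among the TRIM, SP and PARP factors only PARP14, a mono-ADP-ribosyltransferase, rose (log2 fold change 0.71, SE 0.13, edgeR adjusted p = 0.00309), from 12.5 and 15 CPM to 24 and 20.8 CPM. Its neighbours on chromosome 3, PARP9 and its partner DTX3L, were lower by less than the fold minimum, with log2 fold changes of -0.46 (SE 0.10, edgeR adjusted p = 0.00664) and -0.34 (SE 0.11, edgeR adjusted p = 0.0341). SP110, a nuclear body protein, was at 5.10 and 4.83 CPM in control and at 3.53 and 1.54 CPM in MYCL libraries (log2 fold change -0.96, SE 0.35, edgeR adjusted p = 0.0596). It was called lower with no filter on low counts, with at least 10 counts in every library, in the fit of all 4 groups, without control replicate 2 and without MYCL replicate 1 (edgeR adjusted p from 0.000521 to 0.0433), while without MYCL replicate 2 the log2 fold change was -0.50 and it was not called. TRIM21, an antibody receptor in the cytosol, and TRIM22 did not pass (log2 fold changes -0.24, SE 0.15, and 0.94, SE 0.55).

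Of the other effectors, ISG20, a 3'-5' exonuclease, rose from 2.03 and 1.72 CPM to 6.24 and 6.69 CPM (log2 fold change 1.78, SE 0.25, edgeR adjusted p = 0.000817). LGALS3BP, a secreted galectin-binding glycoprotein, rose from 8.14 and 8.78 CPM to 19.5 and 20.4 CPM and had the smallest adjusted p of the members (log2 fold change 1.24, SE 0.12, edgeR adjusted p = 0.000138). RSAD2 (viperin) and its neighbour CMPK2, both enzymes of nucleotide metabolism, did not pass (log2 fold changes 0.47, SE 0.77, and -0.44, SE 0.27). SAMD9, SAMD9L and XAF1 had too few counts to test in C4-2B cells, with at most 5 counts in a MYCL library.

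**Figure D2:**
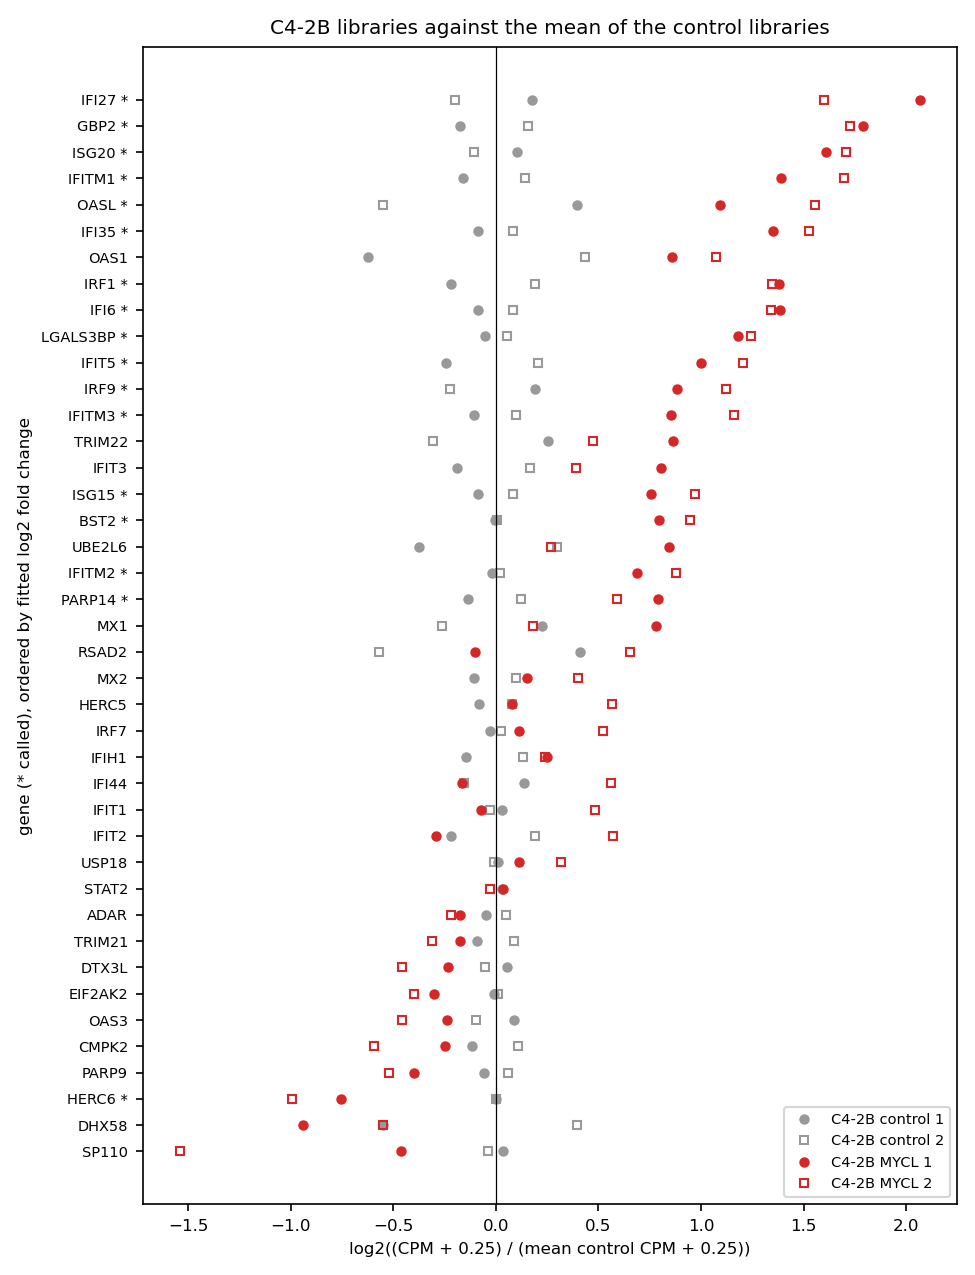
Log2 of the CPM of each C4-2B library over the mean CPM of the control libraries, both with 0.25 added, for the 41 genes tested in C4-2B cells in the order of their fitted log2 fold change. Filled circles are replicate 1 and open squares replicate 2 of control (grey) and MYCL (red), and an asterisk marks the 17 genes called. Both MYCL libraries of the 16 genes that rose sit to the right of both control libraries.

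Called genes and the promoter motifs stood as follows. The ISRE core was present in 10 of the 13 genes that rose and had a promoter window, in 10 of the 19 that were tested and did not rise, and in 3 of the 5 that were not tested. The GAS core was present in 7 of the 13 (IFI27, IFI35, IFITM1, IRF1, IRF9, BST2 and PARP14), in 1 of the 19 (OAS1) and in 0 of the 5. In BST2, IFI27 and IFITM1 the GAS match overlapped the ISRE match. The E-box was present in 2 of the 13 (ISG20 and IRF9) and in 3 of the 19. These are counts of letters in a window and were not tested.

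The spread between the 2 C4-2B MYCL libraries was then taken for each gene, as the log2 ratio of normalised CPM in replicate 2 over replicate 1. The absolute ratio was at least 0.5 for 13 of the 41 members tested (31.7%), compared with 16.2% of all genes tested, and 7 of the 13 were higher in replicate 2. On log2(TPM + 1), 2 of the 30 members kept there were past 0.5, and the median ratio was -0.113 instead of 0.065. That scale left out members without 1 TPM in at least 2 C4-2B libraries and draws low values towards 0. The share of all genes past 0.5 was not taken on it. Among genes with a mean of at least 20 counts, 8 of 33 members (24.2%) were past 0.5 by CPM, compared with 10.6% of all such genes. In the 2 control libraries of C4-2B the same counts were 10 of 41 members, with 13.9% of all genes, and 3 of 33 members, with 8.22% of all such genes. Of members with a mean of at least 20 counts in NCI-H660 cells, 3 of 36 were past 0.5 in shCtrl, with 9.43% of all such genes, and 3 of 36 in shMYCL libraries, with 8.28%. The median absolute ratio of the members in MYCL cells was 0.24, and that of all genes was 0.17. Since a call itself depends on a small spread between these libraries, the spread by call is given as a description only. Of the 16 that rose, 14 had a ratio of at most 0.31 in size, and IFI27 and OASL were past 0.5. Of the 25 that did not rise, 11 were past 0.5.

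SP110 had the largest ratio among the genes with a mean of at least 20 counts, with 65 and 27 counts in MYCL replicates 1 and 2 (log2 ratio -1.19, 95% counting interval -1.90 to -0.52). MX1 was also lower in replicate 2, with 284 and 177 counts (-0.61, interval -0.88 to -0.33). IFIT2 was higher in replicate 2, with 31 and 57 counts (0.96, interval 0.30 to 1.64), and so was IFI44, with 23 and 39 counts (0.84, interval 0.06 to 1.65). For these 4 of the 13 genes the interval, which covers counting error only, left out equal levels. IFIT1 (33 and 48 counts), HERC5 (31 and 43), OASL (34 and 46) and DHX58 (11 and 15) were higher in replicate 2 with ratios of 0.62, 0.55, 0.51 and 0.52, and their intervals held equal levels. The other 5 genes past 0.5 had a mean under 20 counts and intervals that held equal levels. These were RSAD2 at 1.21, UBE2L6 at -0.77, IFI27 at -0.57, IFIT3 at -0.55 and TRIM22 at -0.51.

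The other 28 tested genes were under 0.5 in size. Among them the counting interval left out equal levels for IFITM1, IFITM2, IFITM3, BST2 and IRF7, all higher in replicate 2. It also did so for PARP14 and DTX3L, both lower in replicate 2. In all, the interval left out equal levels for 11 of the 41 members, compared with 9 of 41 in the C4-2B control libraries. IRF7 was at 0.43, MX2 at 0.37, IFITM1 and IFITM3 at 0.31, OAS1 at 0.28, IRF9 at 0.26, ISG15 at 0.22, IFIT5 and USP18 at 0.21, IFITM2 at 0.19, IFI35 at 0.18, BST2 at 0.15, ISG20 at 0.10 and LGALS3BP at 0.06. CMPK2 was at -0.38, HERC6 at -0.24, OAS3 and DTX3L at -0.23, PARP14 at -0.21, TRIM21 at -0.14, PARP9 at -0.12, EIF2AK2 at -0.10, GBP2 at -0.08, STAT2 at -0.07, ADAR and IFI6 at -0.04, IRF1 at -0.03 and IFIH1 at -0.01. Among the genes that were not tested, MYCL replicates 1 and 2 held 5 and 10 counts of GBP1, 2 and 5 of SAMD9, 4 and 0 of OAS2, 0 and 2 of SAMD9L, and 0 and 1 of both IFI44L and XAF1. The IFIT1, IFIT2 and IFI44 levels of MYCL replicate 1 were thus close to those of the control libraries, while those of replicate 2 were higher. For IFIT1 the counting interval held equal levels. MX1 went the other way, with 15.4 CPM in MYCL replicate 1 and 10.1 CPM in replicate 2, compared with 10.4 and 7.35 CPM in control. Of the 13 genes past 0.5, 7 were higher and 6 lower in replicate 2.

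**Figure D3:**
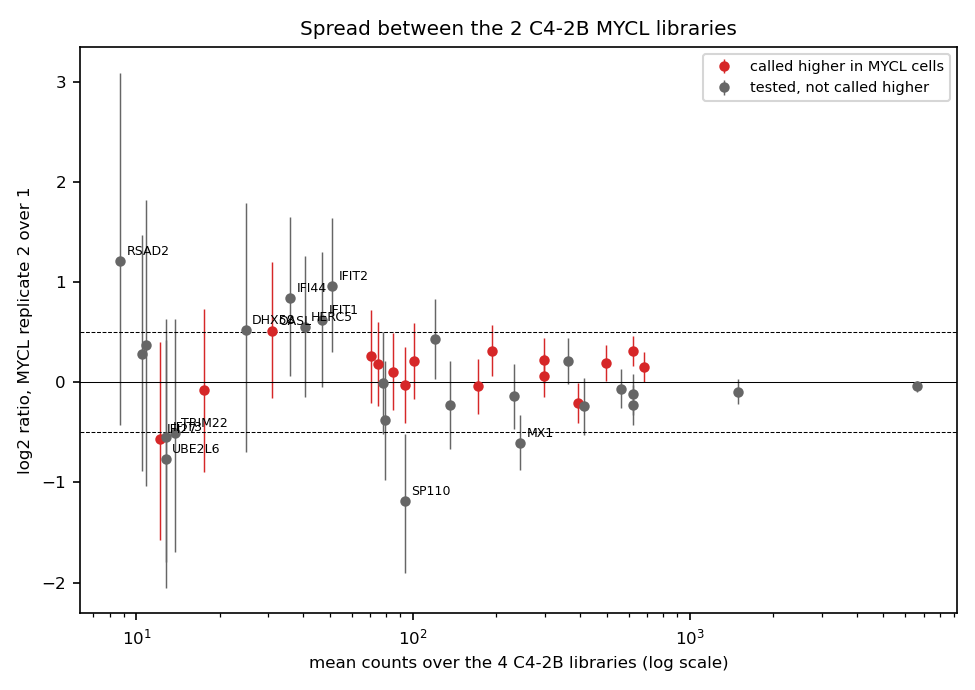
Log2 ratio of MYCL replicate 2 over replicate 1 in C4-2B cells against the mean counts over the 4 C4-2B libraries (log axis) for the 41 genes tested, with 95% counting intervals as bars and dashed lines at an absolute ratio of 0.5. Red genes were called higher in MYCL cells, and named genes are the 13 past 0.5, of which 2 are red.

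MYCL knockdown in NCI-H660 cells was compared with the non-targeting shRNA to find whether these genes changed when MYCL was reduced in a line that expresses it. Of the 39 genes tested, 2 rose (GBP1 and GBP2), 1 fell (IFIT3) and 36 did not pass. This is 7.69% of the members, compared with 16.2% of the 16980 genes tested, of which 7.18% were higher and 8.99% lower. The median log2 fold change was -0.06 for the members and 0.00 for all genes, and the groups did not overlap for 64.1% of the members and 63.1% of all genes.

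GBP2 was at 5.66 and 7.41 CPM in shCtrl and at 12.4 and 9.96 CPM in shMYCL libraries (log2 fold change 0.77, SE 0.20, edgeR adjusted p = 0.0119). GBP1 was at 9.38 and 9.42 CPM and then at 12.8 and 14.3 CPM (log2 fold change 0.53, SE 0.16, edgeR adjusted p = 0.0284). IFIT3 was at 11.6 and 13.1 CPM in shCtrl and at 7.96 and 8.56 CPM in shMYCL libraries (log2 fold change -0.58, SE 0.17, edgeR adjusted p = 0.0238). In all 3 genes the groups did not overlap, but the calls depended on the method and on single libraries. Over all genes tested, DESeq2 called 12.1% and limma on log2(TPM + 1) 10.6%, compared with 16.2% by edgeR. DESeq2 called 1 member, limma on TPM 0 with 10 members at an unadjusted p under 0.05, and edgeR without shMYCL replicate 1 called 0 with 4 members at an unadjusted p under 0.05. It called 1 without shMYCL replicate 2 and 5 without shCtrl replicate 1.

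STAT2, at 51.5 and 53.4 CPM in shCtrl and at 42.5 and 38.6 CPM in shMYCL libraries, was lower by less than the fold minimum (log2 fold change -0.37, SE 0.11, edgeR adjusted p = 0.0266). USP18, at 43.7 and 44.5 CPM and then at 33.4 and 35.3 CPM, was likewise lower by less than the minimum (-0.36, SE 0.12, edgeR adjusted p = 0.033). The other 34 genes had adjusted p-values of at least 0.05. The fitted changes ran from -0.83 for OASL, with SE 0.55, to 0.80 for IFI44, with SE 0.31, and neither passed. ISG15 was at 4.48 and 5.84 CPM in shCtrl and at 4.41 and 3.51 CPM in shMYCL libraries (log2 fold change -0.38, SE 0.27). IFITM1, BST2, IFI27, IFIT1, IFI44L, OAS2, TRIM22 and XAF1 had too few counts to test in NCI-H660 cells.

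Of the 16 genes that rose with MYCL in C4-2B cells, 13 could be tested in the knockdown. Their log2 fold changes on knockdown had a median of -0.08, with 7 below and 6 above 0, and only GBP2 was called, in the same direction as on overexpression. The difference between the lines was tested as an interaction over all 8 libraries, as the effect of MYCL over control in C4-2B minus the effect of shCtrl over shMYCL in NCI-H660 cells, so that both effects compare high with low MYCL. MYCL itself had a log2 fold change of 8.26 on overexpression in C4-2B and of -3.06 on knockdown in NCI-H660 cells. Line, vector, and the direction and size of the MYCL change thus differ together, and their parts in this difference cannot be told apart. It was called for 13 of 44 members, compared with 17.9% of the 19605 genes tested. In 12 of the 13 the effect of high MYCL was greater in C4-2B cells and in 1 it was smaller, compared with 9.59% and 8.33% of all genes tested. BST2 and GBP1, which are among the 12, had too few counts to be tested within 1 of the lines and entered only through the line where they were high, and of the other 11 genes called, 10 had the greater effect in C4-2B cells. The 12 were IFI6, IFI35, IFIT5, IFITM3, BST2, ISG20, IRF1, IRF9, PARP14, GBP1, GBP2 and LGALS3BP. On log2(TPM + 1) limma called 9 of 41 members, compared with 16.6% of all genes tested, and all 9 were greater in C4-2B cells. Only 7 of the 13 edgeR calls were kept there, and those of IFITM3, IFIT5, IRF9, PARP14, DTX3L and LGALS3BP were lost. By edgeR the gene with the smaller effect in C4-2B cells was DTX3L (difference -0.55, SE 0.15, edgeR adjusted p = 0.0203).

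ISG20 differed by 1.55 (SE 0.24, edgeR adjusted p = 0.000796) between the lines, as it rose in C4-2B cells and was at 17.8 and 17.5 CPM in shCtrl and at 14.8 and 15.7 CPM in shMYCL libraries. LGALS3BP differed by 1.10 (SE 0.15, edgeR adjusted p = 0.000262) and was at 85.4 and 90.6 CPM in shCtrl and at 83.5 and 76.5 CPM in shMYCL libraries. IRF1 differed by 1.31 (SE 0.22, edgeR adjusted p = 0.00138) and was at 30.6 and 28.2 CPM and then at 26.2 and 26.5 CPM. With limma on log2(TPM + 1) the LGALS3BP difference was 0.61 and not called (adjusted p = 0.125), nor was it with the other pseudocount, without a filter or after centring. With edgeR, the calls of IFI6, IFIT5, IRF9, IFITM3, BST2 and DTX3L were lost when single libraries were left out, while those of the other 7 genes were kept in each case. ISG15 was not called (difference 0.50, SE 0.28, edgeR adjusted p = 0.246).

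**Figure D4:**
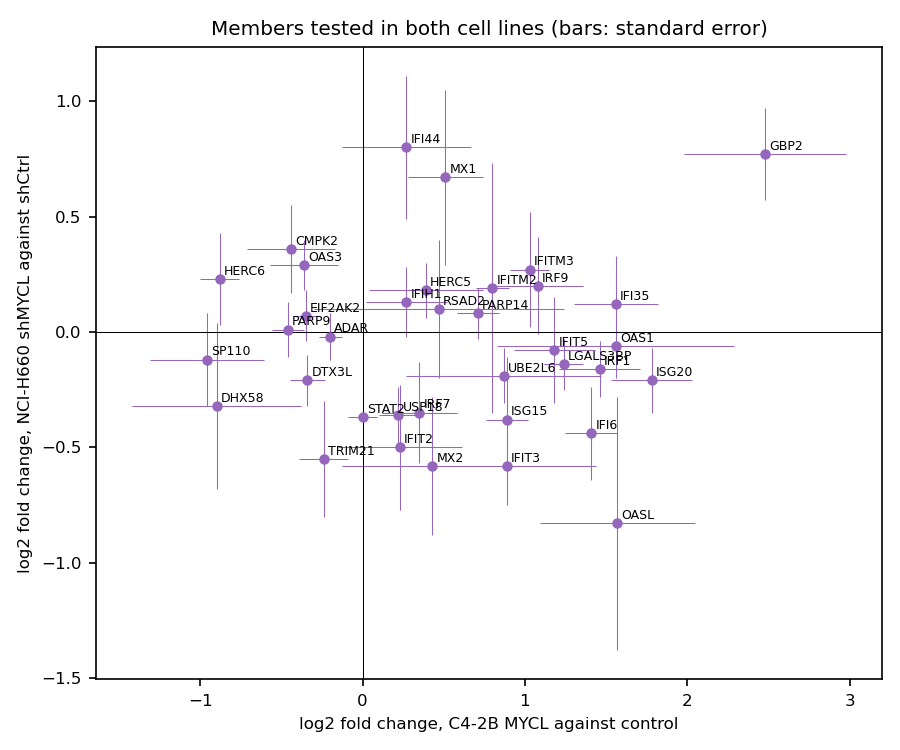
Log2 fold change of MYCL over control in C4-2B cells (horizontal axis) against that of shMYCL over shCtrl in NCI-H660 cells (vertical axis), with standard errors as bars, for the 36 genes tested in both lines. ISG20, IRF1 and LGALS3BP lie to the right and close to 0 on the vertical axis, and GBP2 is high on both axes.

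The control cells of the lines were compared next, to place the levels from which each change started. Of 42 genes tested, 27 were higher and 9 lower in NCI-H660 shCtrl than in C4-2B control cells, compared with 37.4% and 34.2% of the 18748 genes tested. The groups did not overlap for 40 members (95.2%), and for 90.2% of all genes tested. This comparison shares its control libraries with those above. With 71.6% of all genes called, a call here sets few genes apart. Some members had enough counts to test only through the line where they were high, and their calls and p-values rest on that. Among these were GBP1, SAMD9L, SAMD9 and OAS1 in NCI-H660 and BST2 and IFITM1 in C4-2B cells. With no filter on low counts, 27 members were higher and 10 lower of 46, with 42.8% of all genes called. The median log2 difference of the members was 1.24, and that of all genes was 0.04. With limma on TPM (pseudocount 1), which moved the median over all genes by 0.568, 31 members were higher and 6 lower, and after centring each library 21 were higher and 8 lower. Over all genes tested, 72% were called on TPM and 68.8% after centring. Of all genes called, 52.2% were higher with edgeR and 71.4% on TPM before centring. Line, vector and knockdown system differ together and cannot be told apart.

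All 3 IFITM genes and BST2 were lower in NCI-H660 than in C4-2B control cells, as were 5 other members. BST2 had 1255 counts in the 2 control libraries of C4-2B and 1 count in the 2 shCtrl libraries, a level 887-fold lower in NCI-H660 cells (95% counting interval 159 to 35000). IFITM1 had 260 counts and 1 count, a level 184-fold lower (interval 32.7 to 7280). IFITM2 and IFITM3 were lower by log2 differences of -4.62 (SE 0.25, edgeR adjusted p = 7.26e-09) and -1.86 (SE 0.17, edgeR adjusted p = 9.91e-07). TRIM22 had 25 counts in C4-2B control and 0 in all 4 NCI-H660 libraries, at least 5.89-fold lower in shCtrl. The 5 others were MX1, HERC6, IFIT1, ISG15 and TRIM21, with log2 differences of -2.72, -1.66, -1.65, -1.07 and -0.92.

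The genes that were higher in NCI-H660 cells came from all families but that of the IFITM genes and BST2, and some of these families also held lower genes. GBP1 had 333 counts in shCtrl and 0 in C4-2B control libraries, at least 157-fold higher, and SAMD9L had 36 and 0 counts, at least 17-fold higher. SAMD9, whose protein restricts poxviruses, had a log2 difference of 6.49 (SE 0.31, edgeR adjusted p = 2.68e-09), UBE2L6 of 6.40 (SE 0.24, edgeR adjusted p = 3.14e-10) and OAS1 of 6.12 (SE 0.37, edgeR adjusted p = 2.49e-08). The C4-2B control libraries held only 4 and 8 counts of SAMD9, 9 and 14 of UBE2L6 and 3 and 11 of OAS1. In the IFIT, MX and HERC genes, neighbours differed between the lines in opposite directions. IFIT3 was higher in NCI-H660 cells by 4.72 (SE 0.30) and IFIT1, its neighbour, lower by the value above. IFIT5, the neighbour of IFIT1 on its other side, was also called higher. MX2 was higher by 3.09 (SE 0.39) and its neighbour MX1 lower. HERC5 was higher by 3.96 (SE 0.18) and its neighbour HERC6 lower. IFI44, OASL, IRF7, PARP9, SP110 and ADAR were not called between the lines, and in ADAR the log2 difference of 0.38 was under the fold minimum (edgeR adjusted p = 0.00113).

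**Figure D5:**
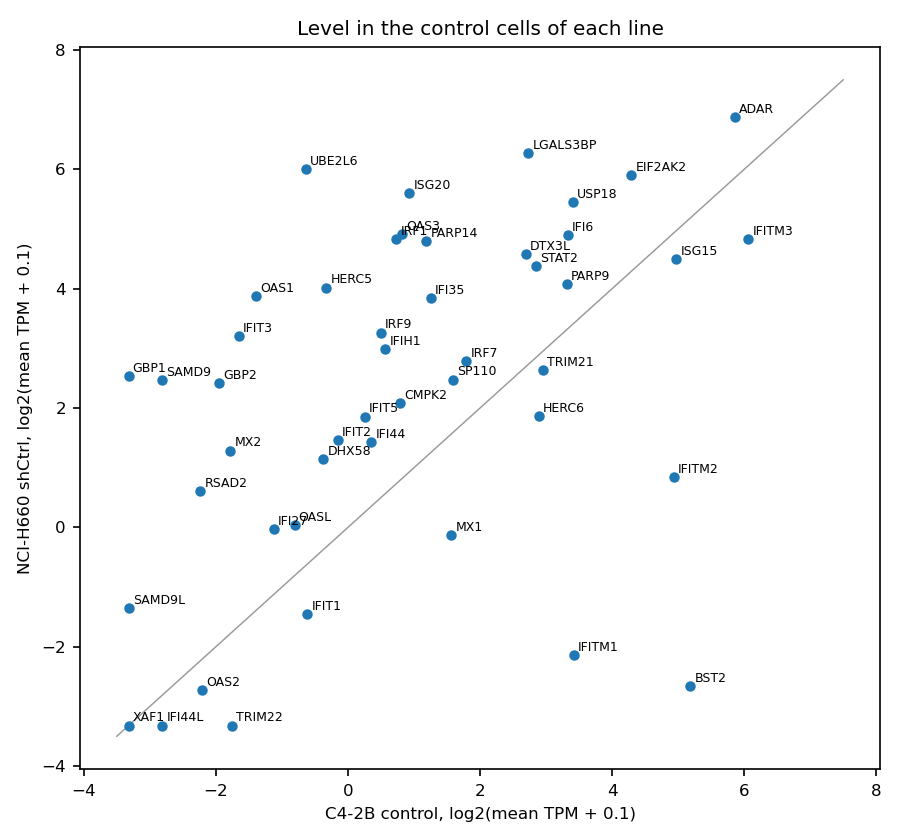
Mean TPM of the 47 genes in NCI-H660 shCtrl (vertical axis) against C4-2B control cells (horizontal axis), both as log2(mean TPM + 0.1), with the line of equal levels in grey. BST2, IFITM1 and IFITM2 lie far below the line, and UBE2L6, OAS1, IFIT3 and GBP1 far above it.

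The genes upstream of these targets were read from a list of 39 interferon pathway genes. The 9 interferon ligand genes searched, IFNA1, IFNA2, IFNB1, IFNE, IFNK, IFNG, IFNL1, IFNL2 and IFNL3, had 0 counts in all 8 libraries, which allows up to 3 counts of each per library. Among the others, 3 of 25 tested rose in C4-2B cells with MYCL and 1 fell, compared with 11.8% and 8.12% of all genes tested. The share that rose was thus close to that of all genes. IFNGR1, the ligand-binding chain of the type II receptor, had 1233 and 981 counts in control and 1046 and 1030 counts in the smaller MYCL libraries (log2 fold change 0.55, SE 0.08, edgeR adjusted p = 0.00129). STING1, the adaptor of cytosolic DNA sensing, and IRF5 rose by 0.80 (SE 0.23, edgeR adjusted p = 0.0248) and 0.76 (SE 0.16, edgeR adjusted p = 0.00562). MYD88, the adaptor of Toll-like receptors, fell (log2 fold change -0.63, SE 0.09, edgeR adjusted p = 0.00117).

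In the knockdown 1 of 29 pathway genes was called, compared with 16.2% of all genes tested. RIGI, the sensor of short double-stranded RNA, fell from 576 and 516 counts to 331 and 328 counts (log2 fold change -0.53, SE 0.13, edgeR adjusted p = 0.00919). Between the control cells, 10 of 29 were higher and 4 lower in NCI-H660, compared with 37.4% and 34.2% of all genes tested. IFNLR1, the receptor of type III interferons, had 0 and 1 counts in C4-2B control and 381 and 445 counts in shCtrl libraries, and CGAS, the DNA sensor upstream of STING1, had 0 and 1 counts and then 296 and 303 counts. JAK1 and STING1 were higher in NCI-H660 cells by 3.18 (SE 0.14, edgeR adjusted p = 1.26e-09) and 3.49 (SE 0.15, edgeR adjusted p = 1.17e-09).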

How the data were processed

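RNA sequencing libraries were made from poly(A)-selected RNA with paired-end reads. The estimated counts per gene were deposited by the authors without normalization between libraries, on genome build hg38 per the submitters' processing notes, and were rounded to whole numbers here. The TPM values were computed by the authors from counts and gene lengths. The aligner, the counting tool and the use of strand are not given in the sources used here. Totals of 15177071 to 32344170 counts set the counting precision.

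Each comparison was fitted in edgeR 4.0.16 (R 4.3.3) by quasi-likelihood after filterByExpr and TMM scaling, with Benjamini-Hochberg correction across the genes tested. Calls required adjusted p below 0.05 together with a log2 change of 0.5 or more in size. CPM are counts scaled to TMM library sizes, set within each cell line, and are not compared across lines. Alternatives were DESeq2 1.42.0, limma 3.58.1 on TPM, other filters and scalings, a replicate block and leaving out each library. The scripts were tested on simulated data. Values are given in every library for the members called in each line (up to 12), the 12 of largest spread between the C4-2B MYCL libraries, and the members whose effect differed between lines, and further members are named by role. The members and gene lists were chosen with earlier results of these data known. Gene positions are from GENCODE 44. Results that need certain genes of the pathway and marker lists are not reported here.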

Additional observations from a re-analysis of the deposited data

Results flagged for a closer look

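In 13 genes the effect of high against low MYCL differed between the cell lines by edgeR's interaction test with Benjamini-Hochberg adjustment over 19605 genes. Line, vector, and the direction and size of the MYCL change differ together here and cannot be told apart. The log2 differences (C4-2B minus NCI-H660) were 0.97 for IFI6, 1.68 for IFI35, 1.10 for IFIT5, 1.30 for IFITM3, 1.55 for ISG20, 1.31 for IRF1, 1.27 for IRF9, 0.78 for PARP14, 3.25 for GBP2, 1.10 for LGALS3BP and -0.55 for DTX3L. BST2 (3.62) and GBP1 (6.67) each rest on a group near 0 counts, so their fitted sizes depend on the prior count. BST2 had 1 count in shCtrl and 7 counts in shMYCL cells, and GBP1 had 0 counts in C4-2B control cells. GBP2 moved up both with MYCL overexpression and with MYCL knockdown. With 1 library left out, the calls of 6 of these genes were lost in at least 1 case by edgeR's test. IFIT5 was lost without C4-2B control replicate 1, MYCL replicate 2 or any of the 4 NCI-H660 libraries (edgeR adjusted p from 0.0686 to 0.152). IFI6 was lost without C4-2B control replicate 1, either MYCL library, shCtrl replicate 1 or either shMYCL library (0.0514 to 0.0934). IRF9 was lost without C4-2B control replicate 2, MYCL replicate 2, shCtrl replicate 2 or shMYCL replicate 2 (0.0811 to 0.109). DTX3L was lost without C4-2B control replicate 1, MYCL replicate 2, shCtrl replicate 1 or shMYCL replicate 2 (0.053 to 0.1). BST2 was lost without shCtrl replicate 1 (0.0975) or shMYCL replicate 2 (0.23), and IFITM3 without shMYCL replicate 1 (0.0654).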

How the results depend on the processing

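In C4-2B cells the 17 calls became 11 with limma on log2(TPM + 1) without a filter and ran from 16 to 19 without 1 library. The members' median of 0.512 was 0.374 with at least 10 counts in every library, 0.606 in the fit of all 4 groups, 0.35 with limma on log2(TPM + 1), 0.159 with that and no filter, and 0.582 to 0.696 without 1 library. In NCI-H660 cells the 3 calls became 5 with no minimum on the fold change, 1 with DESeq2, 1 in the fit of all 4 groups, 0 with limma on log2(TPM + 1), log2(TPM + 0.1), log2(TPM + 1) without a filter and centred log2(TPM + 1), each with 10 members at an unadjusted p under 0.05, and 0 to 5 without 1 library. The median of -0.064 was -0.022 without a filter, -0.026 with at least 10 counts, -0.038 with all 4 groups, -0.003 with either TPM pseudocount, 0.001 on TPM without a filter, -0.008 centred, and -0.085 to -0.034 without 1 library. Between the control cells the 36 calls ran from 33 to 37 without 1 library, and the median of 1.24 was 1.046 without a filter, 1.01 with at least 10 counts, 1.141 with all 4 groups, 1.486 and 1.613 with the TPM pseudocounts of 1 and 0.1, 1.062 on TPM without a filter, 0.775 centred, and 1.242 to 1.39 without 1 library. For the difference between lines the 13 calls became 8 with limma on log2(TPM + 0.1), 4 on TPM without a filter, and 8 to 13 without 1 library, the 8 being without shMYCL replicate 2. Its median of 0.647 was 0.382 with at least 10 counts, 0.264 and 0.481 with the TPM pseudocounts of 1 and 0.1, 0.186 on TPM without a filter, 0.357 centred, and 0.441 to 0.694 without 1 library. Between the MYCL libraries of C4-2B, 2 of the 30 members kept on log2(TPM + 1) were past a ratio of 0.5, with a median ratio of -0.113. By CPM 2 members were past a ratio of 1. The cause of these shifts was not tested, and fits without 1 library assume that the lone library varies like the others. Centring was chosen after seeing the data. The share of all genes called also changed with the method. In C4-2B cells it was 19.9% by edgeR and 6.44% with limma on log2(TPM + 1) without a filter. In NCI-H660 cells it was 16.2% by edgeR, 12.1% with DESeq2 and 12.8% in the fit of all 4 groups. With limma on log2(TPM + 1) it was 10.6% there, and 0.0034% without a filter. For the difference between lines it was 17.9% by edgeR. With limma it was 13.9% on log2(TPM + 0.1) and 5.47% on log2(TPM + 1) without a filter.

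With a replicate block 17 members were higher and 2 lower in C4-2B, where 21% of all genes tested were called. In NCI-H660 cells 2 were higher and 1 lower, with 17.4% of all genes called. The genes gained in C4-2B were MX1 (edgeR adjusted p = 0.0117) and SP110 (0.0121). The replicate numbers did not pair the libraries, since the correlation of deviations of same-numbered libraries was 0.033 in C4-2B, 0.046 in NCI-H660 and 0.015 between control cells. No single gene value reversed. Genes under about 20 counts carry the widest counting intervals.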

Other observations

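Antigen presentation genes stood beside the interferon-stimulated genes. Of 19 MHC class I and antigen processing genes, 8 rose and 0 fell in C4-2B cells with MYCL (median log2 fold change 0.47), compared with 11.8% and 8.12% of all genes tested. In the knockdown edgeR called 0 of the 19, with 7 at an unadjusted p under 0.05 (median -0.18). Of 23 NF-kB targets and cytokines, 11 had too few counts to test in C4-2B cells. Of the 12 tested, 9 rose and 1 fell with MYCL, compared with 11.8% and 8.12% of all genes tested. Of the 23, 7 had 0 counts in the control group and 2 in the MYCL group. A gene near 0 in control was thus tested only if it was high with MYCL. In the knockdown 1 rose and 4 fell of 15 tested, compared with 7.18% and 8.99% of all genes tested. The part of these genes in the levels of the interferon-stimulated genes was not tested.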
